A study of Mus musculus with 20 samples.

Results

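Sorbs2 knockout hearts were compared with wild-type hearts at 6 months of age, an adult age in the mouse. The comparison used RNA sequencing of 10 of the 20 libraries of the study. All genes with a normalised count of at least 10 in at least 4 of these 10 libraries entered the comparison, which left 13171 of the 18657 genes listed for that age. The wild-type group (WT) held 5 libraries of untreated hearts with an intact Sorbs2 gene. The knockout group (KO) held 5 of untreated hearts labelled as Sorbs2 knockout. The other libraries of the study, from younger mice and from KO mice given a Sorbs2 vector, are not used here. The labels name the tissue left ventricle and the design text ventricular myocardium; RNA of a whole tissue piece was sequenced, so every value is an average over all its cell types. The labels give neither the targeted exons nor whether the deletion was limited to a cell type, and they name no strain, sex or litter. Nothing says that the replicates came from separate litters or preparation days, so p values measure the spread between these libraries. Values are quoted in the order of replicates 1 to 5 unless stated, log2 changes are those of log2(value + 1) with their standard error (SE), and adjusted p values come from limma with Benjamini-Hochberg adjustment over all 13171 genes.

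Sorbs2 encodes an adaptor protein of the sorbin homology family that sits at the Z-disc and the intercalated disc of heart muscle cells and binds actin-associated proteins. In the rodent ventricle, sustained load is known to bring back genes of the fetal heart, such as natriuretic peptides, slow myosin heavy chain and skeletal actin, while genes of fatty acid oxidation and mitochondria decline. Fibroblasts of a loaded heart turn on matrix genes under the control of transforming growth factor beta (TGF-beta), which is secreted in a latent form bound to matrix proteins.

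Sorbs2 itself (chromosome 8, 45507788 to 45827906, plus strand, mm10) was read first as a check of the labels. Its normalised count was 5352, 5398, 5136, 4562 and 4753 in WT and 1648, 612, 593, 494 and 1755 in KO. KO 1 and KO 5 kept more than the other KO libraries, and no KO library reached the WT range. The log2 change was -2.52 ± 0.33 (adjusted p = 0.000361), and an exact two-sided permutation test gave p = 0.00794, the smallest that 5 against 5 libraries allow. The related adaptor Sorbs3 did not pass the test. It was 653 to 979.7 in WT, 1637 in KO 1, 1536 in KO 5 and 697 to 845 in the other KO libraries (log2 0.34, adjusted p = 0.381), so the libraries with the most residual Sorbs2 were also those highest in Sorbs3.

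Totals of normalised counts ran from 12492381 to 13670340 in WT and from 11359135 to 12222476 in KO, without overlap (exact permutation p = 0.00794). The first principal component of all tested genes held 41.9% of the variance and separated the groups. The second held 23.5% and placed WT 5, KO 1, WT 4 and KO 5 on one side (53.4, 40.6, 19.1 and 15.9) and the other libraries between -2.87 and -35.9. Median levels of the 2537 genes of shortest exon length, relative to the WT mean, lay at 0.07, -0.21, -0.13, 0.09 and 0.22 in WT 1 to WT 5 and at 0.12, -0.23, -0.26, -0.30 and -0.04 in KO 1 to KO 5 (log2). Those of KO 1 and KO 5 were the highest of the KO group, and WT 5 and WT 4 were the highest of WT. Xist, the RNA of the inactive X chromosome, stood at 4789 in WT 4 and 6934 in WT 5 and at most at 15.2 elsewhere, so no KO library carried it. Among the 8 libraries without Xist 1859 genes changed. Cd3e of T cells, Adipoq of adipocytes and Sftpc of lung were at most 12.4 in any library, whereas the atrial markers Myl7 and Sln reached 459 and 89.9 in KO 3 and at most 47.5 and 15.3 elsewhere.

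Of the 13171 genes tested, 2182 (16.6%) changed: 1066 (8.09%) rose in KO and 1116 (8.47%) fell. The shares of 8.09% and 8.47% are the background for the counts of every gene list below. The rises were the larger ones, with 530 genes (4.02%) up and 316 (2.4%) down by at least 2-fold. All 5 KO libraries lay above all 5 WT libraries in 870 genes (6.61%) and below them in 974 (7.4%). An unadjusted p under 0.05 was reached by 3899 genes (29.6%). The median log2 change of all genes was 0.001 as deposited. Scaling all libraries to equal totals moved it to 0.16 and the split to 1734 genes up and 656 down, so small changes below are to be read against that shift. The number of changed genes was 1450 without KO 5 and 1537 without WT 1, and at least 1657 without any other single library.

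Among rises of the smallest p, a group of secreted and signalling proteins were low in every WT library and high in every KO library. Cilp, a cartilage intermediate layer protein that binds TGF-beta (chromosome 9, 65265180 to 65280605), held 55.6, 97.8, 110.3, 99.4 and 69.2 in WT and 3262, 1911, 1896, 2142 and 2849.6 in KO. Tgfb2, a TGF-beta ligand (chromosome 1, 186622792 to 186705989), held 82.9, 171, 138, 140.4 and 116 in WT and 1705, 1628, 1209.8, 1834 and 2001 in KO. Thbs4, a thrombospondin of the matrix (chromosome 13, 92751590 to 92794818), held 88.7, 93.2, 52.8, 93.3 and 148 in WT and 6166, 2656, 3146, 1549.5 and 4753 in KO. In each of the 3 genes the lowest KO library stood far above the highest WT library. The log2 changes were 4.79 ± 0.21, 3.70 ± 0.19 and 5.17 ± 0.35 (adjusted p = 1.63e-07, 3.54e-07 and 2.44e-06). Vgll2, a cofactor of TEAD transcription factors best known from skeletal muscle (chromosome 10, 52022502 to 52028471), was almost silent in WT at 1.95, 3.81, 6.61, 3.08 and 3.09 and reached 439.9, 295, 175, 789 and 504 in KO, a change of 6.45 ± 0.38 (adjusted p = 9.06e-07). Xirp2, an actin-binding Xin repeat protein of the Z-disc and intercalated disc, held 10977, 12994, 10093, 5994 and 5912 in WT and 114007, 112597, 81079, 102405 and 141896 in KO, a 12.4-fold rise (log2 3.64 ± 0.25, adjusted p = 3.07e-06). WT 4 and WT 5, the Xist libraries, were the lowest of their group in Xirp2, and without them the log2 change was 3.27. The remaining increases of smallest p were Dio2, the deiodinase that activates thyroid hormone (log2 3.84), the membrane channel Panx1 (3.63), the proteoglycan Fmod (5.16), the proteases Adamts8 (5.53) and Adamts20 (5.33), Syndig1, known from synapses (6.29), and Map3k7cl (3.39). Their adjusted p ran from 1.63e-07 (Cilp) to 3.07e-06 (Xirp2) over all 12, and none of the calls was lost in the 23 alternative analyses, except that Syndig1 and Vgll2 were not tested without KO 1 and KO 5. No WT library of Vgll2 or Syndig1 reached a value of 10, so both genes entered the comparison through their KO libraries alone.

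**Figure D1:**
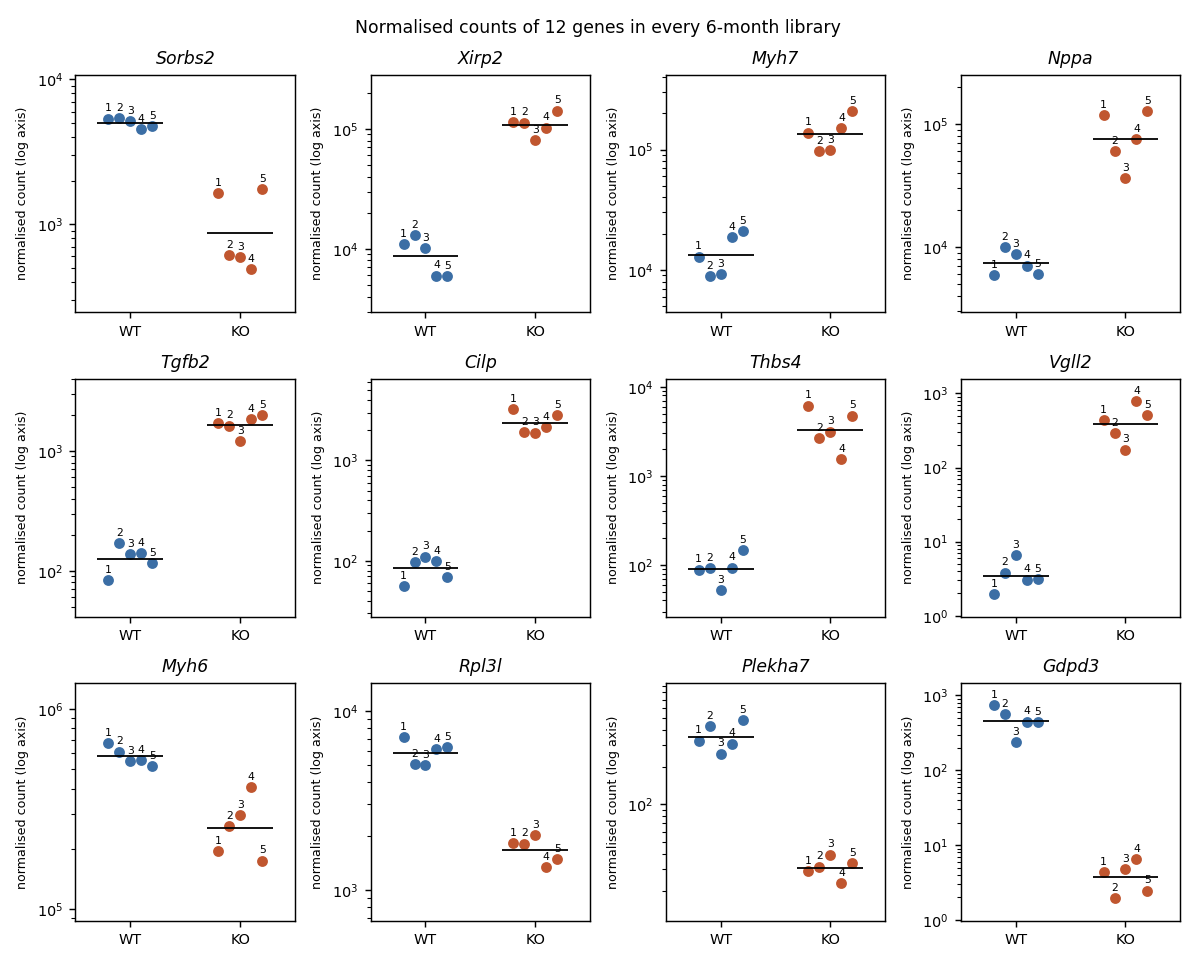
Normalised counts of 12 genes in each library, on a log axis; each point is 1 library, numbered by replicate, in WT (left) and KO (right), and the bar marks the mean of log2(value + 1). Sorbs2 and the genes of the bottom row sit lower in all 5 KO libraries, the other genes sit higher, and KO 1 and KO 5 hold the most Sorbs2 of the KO group.

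Falls of the smallest p reached near absence as well. Gdpd3, a lysophospholipase D (chromosome 7, 126766334 to 126775649), held 735, 564, 239, 448 and 444 in WT and 4.37, 1.95, 4.8, 6.55 and 2.47 in KO. Plekha7, an adaptor of adherens junctions (chromosome 7, 116123485 to 116308376), held 327, 429.7, 257, 308 and 477 in WT and 28.8, 31.4, 39.2, 23 and 33.6 in KO. The changes were -6.59 ± 0.33 and -3.47 ± 0.20 on the log2 scale (adjusted p = 3.54e-07 and 8.14e-07), with no KO library within the WT range. Rpl3l, the muscle copy of ribosomal protein L3 (chromosome 17, 24727820 to 24736143), fell from 7171, 5024, 4988, 6114 and 6266 to 1819, 1812, 2032, 1343 and 1488 (log2 -1.80 ± 0.15), while its ubiquitous counterpart Rpl3 rose from 2128, 2271, 2245, 3249 and 3169 to 5767, 4177, 3768, 4516 and 6067 (log2 0.90 ± 0.18, adjusted p = 0.00446). Bcat2, the mitochondrial enzyme that takes the amino group off branched-chain amino acids, fell from 3488, 2851, 2962, 2400.2 and 2136 to 868, 1068, 1044, 979 and 812 (log2 -1.52 ± 0.14, adjusted p = 3.14e-05). The rest of the 12 were Abhd1 (log2 -4.47), Hddc3 (-3.19), the glutathione transferase Gstp2 (-1.95), the phosphatase-like Ptprn2 (-5.86), Ociad2 (-2.35), the silent potassium channel subunit Kcnv2 (-2.38), the tubulin polyglutamylase subunit Ttll1 (-1.56) and Dhrs7c, a dehydrogenase of the sarcoplasmic reticulum (-1.65). The strand setting of the counting is not given in the sources used here, and 89.6% of the exon length of Abhd1 and 76.3% of that of Hddc3 overlap a gene on the other strand; Gstp2 shares 54.1% and Rpl3 34.9% of its 51-base stretches with other transcripts, so the values of these 4 genes are uncertain. None of these 12 falls lost its call in an alternative, except that Gdpd3 and Ptprn2 were not tested among the libraries without Xist.

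In absolute terms the largest rises were in genes of load and stretch, which together took 1.02% of all counts in WT and 5.94% in KO. Ankrd1, a stretch-responsive ankyrin repeat protein of the I-band (chromosome 19, 36111961 to 36120099), held 26134, 32487, 22052, 22150.2 and 17232 in WT and 242297, 122095, 87505, 121525 and 229207 in KO (log2 2.66 ± 0.30, adjusted p = 0.000132). Myh7, the slow beta-myosin heavy chain (chromosome 14, 54970684 to 54994626), held 12919, 8894, 9170.3, 18758 and 21171 in WT and 137963, 97021, 99578, 150922 and 209559 in KO (log2 3.32 ± 0.30, adjusted p = 2.24e-05). Nppa, the precursor of atrial natriuretic peptide (chromosome 4, 148000722 to 148002079), held 5866, 9946, 8782, 7057 and 5978 in WT and 118031, 60255, 36237, 75419.7 and 126811 in KO (log2 3.36 ± 0.32, adjusted p = 3.18e-05). KO 1 and KO 5 were the highest in Ankrd1 and Nppa, and KO 3, the library with most Myl7, was the lowest of the KO group in Nppa. Ankrd1 took the largest share of counts in KO 1 (2.09%) and KO 5 (1.97%), a place that Myh6 took in every other library. Acta1, skeletal alpha-actin, held 21525, 12343, 14811, 3937 and 4057 in WT and 66947, 42515, 38750.2, 54868 and 85590.5 in KO (log2 2.60 ± 0.46, adjusted p = 0.00231); WT 4 and WT 5 were again the lowest. Synpo2l, an actin-binding protein of the Z-disc, rose from 2185, 1975, 2151, 1222 and 774 to 6047, 9063, 8172, 11505 and 12314 (log2 2.56), Ankrd23 rose by 1.58, the Z-disc assembly protein Nrap by 1.09, Nppb, the precursor of B-type natriuretic peptide, by 1.05 and the intermediate filament desmin (Des) by 0.89 (adjusted p = 0.000139, 0.000522, 0.00776, 0.012 and 0.0136). Of the exon length of Nppa, 61.5% overlaps a predicted gene on the other strand, 74.9% of the 51-base stretches of Ankrd23 occur in another annotated transcript, and Myh7 shares 15.3% of its stretches with other genes, Myh6 above all.

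Promoters of these genes were searched for CATTCC, the MCAT box bound by TEAD factors, on both strands and with overlapping matches counted, because Vgll2 and other TEAD cofactors were among the changed genes. The 250 bases before the start site (RefSeq, GRCm38.p6) held it in 11% of 12762 promoters of tested genes, in 12.4% of those of genes that rose and in 12.9% of those of genes that fell; 9970 of the 13171 genes matched a promoter by symbol. Among 11 promoters of skeletal muscle isoforms 4 held it (36.4%), among 35 of the stretch-responsive list, which includes Ankrd1, 5 (14.3%), and among 42 of interferon-stimulated genes 3 (7.14%). Where a gene has several listed start sites, the one with the most matches was chosen for display, so other start sites of the gene may hold fewer. Stretches of 100 to 220 bases that hold the matches and end at the start site are shown for 6 genes that rose, written 5′ to 3′ on the strand of the gene, with the box in capitals (GGAATG where it lies on the other strand).
Ankrd1: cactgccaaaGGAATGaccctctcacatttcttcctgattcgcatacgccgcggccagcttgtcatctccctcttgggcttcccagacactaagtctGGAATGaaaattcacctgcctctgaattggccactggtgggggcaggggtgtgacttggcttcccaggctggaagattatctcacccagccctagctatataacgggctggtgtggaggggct
Myh7: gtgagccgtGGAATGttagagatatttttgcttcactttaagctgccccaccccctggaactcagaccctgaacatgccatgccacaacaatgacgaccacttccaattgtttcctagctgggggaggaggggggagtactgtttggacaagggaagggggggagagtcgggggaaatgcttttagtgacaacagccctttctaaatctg
Acta1: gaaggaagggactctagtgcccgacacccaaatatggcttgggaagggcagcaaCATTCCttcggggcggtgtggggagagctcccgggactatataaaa
Mybpc2: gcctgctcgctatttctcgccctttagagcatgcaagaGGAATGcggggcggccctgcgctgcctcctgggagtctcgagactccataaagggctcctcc
Myl1: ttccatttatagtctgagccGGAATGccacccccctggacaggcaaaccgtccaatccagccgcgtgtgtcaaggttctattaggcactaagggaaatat
Thbs4: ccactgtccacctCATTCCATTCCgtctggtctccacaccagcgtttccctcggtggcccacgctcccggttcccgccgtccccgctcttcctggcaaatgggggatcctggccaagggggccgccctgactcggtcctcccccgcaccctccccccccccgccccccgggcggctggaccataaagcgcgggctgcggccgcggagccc
They lie at chr19:36119845-36120064, minus strand (Ankrd1), chr14:54994627-54994836, minus strand (Myh7), chr8:123894776-123894875, minus strand (Acta1), chr7:44524670-44524769, minus strand (Mybpc2), chr1:66945057-66945156, minus strand (Myl1) and chr13:92794819-92795028, minus strand (Thbs4). Ankrd1 holds boxes that begin at -210 and -123 from the start site, and Thbs4 a pair that overlap by 1 base at -197 and -192. The single boxes of Myh7, Acta1, Mybpc2 and Myl1 begin at -201, -46, -62 and -80. A match is a description of letters, and the shares of rising and falling promoters that hold it differ little from that of all promoters.

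The largest absolute falls were in the fast myosin, troponin I and enzymes of energy supply, from 8.98% of all counts in WT to 4.97% in KO. Myh6, the fast alpha-myosin heavy chain of the adult mouse heart, held 676055, 612153, 549041, 556285 and 517771 in WT and 194565, 258870, 294127, 406774 and 174544 in KO. Every KO library lay below the WT range (log2 -1.19 ± 0.31, adjusted p = 0.0218), and the adjusted p was 0.0578 without WT 1 and 0.06 without KO 5. The call for Myh6 was also lost with no filter, with quantile normalisation, with the replicate number as a block and without KO 1 and KO 5 together. Its highest adjusted p over the alternatives was 0.405. Ckm, the muscle creatine kinase, fell from 53344, 36675, 40796, 40761 and 48117 to 13372, 17892, 20609, 15579 and 8881 (log2 -1.57 ± 0.22, adjusted p = 0.000586), and Eno3, the muscle enolase of glycolysis, from 34242, 25912, 27899.8, 28013 and 31252 to 6932, 11394, 12146, 8487 and 5868 (log2 -1.76 ± 0.21, adjusted p = 0.000155). KO 5 was the lowest library in both. The other large falls were Tnni3, cardiac troponin I (log2 -0.97), Slc25a4, the ADP/ATP carrier (-0.89), Lpl, lipoprotein lipase (-0.92), Cox4i1 of cytochrome oxidase (-0.82) and the ATP synthase subunit genes Atp5b (-0.77) and Atp5a1 (-0.81). Their adjusted p ran from 0.00435 (Slc25a4) to 0.0367 (Atp5a1); the call for Atp5a1 was lost without any of 6 single libraries (WT 1 to WT 4, KO 1 and KO 5; adjusted p from 0.0614 to 0.0973). Gapdh, often taken as a reference gene, was 68508 ± 9576 in WT and 47123 ± 2166 in KO (SD, n = 5 each; log2 -0.53, adjusted p = 0.0486), a call that was lost without any single library (adjusted p from 0.0538 to 0.115).

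Of 17 tested ligands of the TGF-beta family, 5 rose and 0 fell, against a background of 8.09% of genes up and 8.47% down, and their median log2 change was 0.36. Tgfb2 is given above. Inhba, the activin A subunit, went from 10.7, 13.4, 16.1, 12.3 and 19.6 to 201, 89.8, 81.7, 112 and 192 (log2 3.07 ± 0.29, adjusted p = 2.94e-05), and Tgfb3 from 318, 297, 332, 335 and 284 to 1072, 649, 607, 814 and 1143 (log2 1.41 ± 0.18, adjusted p = 0.000247). Gdf15, a stress-induced growth differentiation factor, rose by 1.73, and Gdf6 by 2.11. Tgfb1, in contrast, was 358 to 614 in WT and 402 to 669 in KO, which overlap (log2 0.30, adjusted p = 0.273). The 3 TGF-beta isoforms thus had log2 changes of 0.30 (Tgfb1), 3.70 (Tgfb2) and 1.41 (Tgfb3) in the same hearts.

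Receptors of these ligands and members of the latent binding protein family changed in part. Among 26 receptors, latent binding proteins and related genes 5 rose and 1 fell (median 0.26). Ltbp2, an elastic fibre protein that belongs to this family by name, held 54.7, 56, 50.9, 26.6 and 28.9 in WT and 1113, 494, 548, 549.6 and 1109 in KO, and Ltbp3 held 616, 607, 518, 566 and 680.4 and 1151, 854, 919, 954 and 1109. The groups did not overlap in either gene (log2 4.08 ± 0.30 and 0.73 ± 0.12, adjusted p = 4.55e-06 and 0.00137). Ltbp1 moved the other way, 701 to 977 in WT and 503 to 682 in KO (log2 -0.49, adjusted p = 0.0248), with adjusted p values of 0.0505 to 0.0676 when WT 2, WT 3, KO 1 or KO 5 was left out. The type I receptor Tgfbr1 rose by 1.00 and the TGF-beta induced matrix protein Tgfbi by 0.91 (adjusted p = 0.000915 and 0.00244). Of 7 antagonists of bone morphogenetic proteins and activin 3 rose and 0 fell. Among the rises Fstl3, a follistatin-like binder of activin, went from 108 to 378 (log2 1.71) and Fstl1 from 1423 to 3775 (log2 1.37), as group means. On the other strand of 47.3% of the exon length of Fstl3 another gene is annotated.

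Of 33 collagen genes 23 rose and 1 fell, with a median change of 1.05. Among fibrillar collagens, Col1a1 went from 1194, 1240.3, 1504, 1212 and 1301 in WT to 4471, 2869.7, 3736, 2817 and 4971 in KO (log2 1.52 ± 0.17, adjusted p = 9.98e-05), Col1a2 rose by 1.31 and Col3a1 by 1.03. Basement membrane collagen rose less, with 0.80 for Col4a1 and 0.68 for Col4a2, except for Col4a3, which went from 43.9, 56, 55.6, 47.1 and 63 to 206, 180.3, 168, 163 and 174 (log2 1.73). Larger changes were seen in collagens of low level in WT. Col12a1, a fibril-associated collagen, went from 12.7, 23.7, 14.1, 16.4 and 2.07 to 361, 214, 311, 165 and 318 (log2 4.43 ± 0.47), Col22a1, known from muscle-tendon junctions, rose by 3.28, and the network-forming Col8a1 and Col8a2 by 2.20 and 3.26. The adjusted p of the collagens named so far was at most 0.0112 (Col4a2). Col6a6 was the collagen that fell (42.3 to 177 in WT, 6.2 to 55.5 in KO; log2 -2.02, adjusted p = 0.0243), and its adjusted p was 0.0512 to 0.0624 without WT 2, WT 3, WT 4, KO 2 or KO 5. Without KO 1 and KO 5 together the collagen counts were 18 up and 0 down, and Col8a2 was then not tested because it no longer passed the filter.

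Enzymes that fold, cleave and crosslink collagen moved with it in part: 11 of 22 rose and 0 fell (median 0.45). P3h2, a prolyl 3-hydroxylase, stood out, with 43.8, 70.5, 38.7, 26.7 and 17.5 in WT and 319, 641, 379.7, 763 and 656 in KO (log2 3.84 ± 0.35, adjusted p = 2.24e-05). The crosslinking lysyl oxidase family rose with Loxl1 at 1.17, Loxl2 at 1.23 and Loxl3 at 1.84, and the procollagen C-proteinase enhancer Pcolce at 0.87 (adjusted p = 0.000151, 0.000921, 0.00121 and 0.00485). The count of 11 became 6 without WT 1, 7 without WT 2, 6 without KO 1 and 5 without KO 5. P3h2 has another gene on the opposite strand of 28.4% of its exon length.

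Small leucine-rich proteoglycans, which coat and space collagen fibrils, rose in 9 of 11 cases with 0 falls (median 0.75). Fmod, fibromodulin, held 7.8, 5.71, 5.66, 12.3 and 10.3 in WT and 556, 289, 249, 182 and 466 in KO (log2 5.16 ± 0.32, adjusted p = 1.19e-06). Bgn, biglycan, held 2646, 2881, 3353, 3034 and 3637 and 13548, 8187, 8195, 8776 and 12744 (log2 1.70 ± 0.17, adjusted p = 5.68e-05), and Aspn, asporin, 286, 464, 507, 446 and 394 and 1508, 1181, 1159, 1343 and 1314 (log2 1.65 ± 0.15, adjusted p = 2.81e-05). No KO library overlapped the WT range in these 3. Prelp rose by 0.72, and Ogn did not pass (0.29, adjusted p = 0.178). The count was 6 without KO 5 and 4 without KO 1 and KO 5. Of 19 larger proteoglycans and hyaluronan genes 6 rose and 1 fell; the hyaluronan receptor Cd44 rose by 1.90, versican (Vcan) by 1.57 and lubricin (Prg4) by 2.06, while the median of the list was 0.19. The single fall became 0 without WT 1, WT 2, WT 4, WT 5, KO 2, KO 3, KO 4 or KO 5.

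Elastic fibre and matricellular proteins held some of the largest matrix changes. Elastic fibre genes numbered 7 up and 2 down of 17 (1 down without KO 5). Mfap4, a microfibril-associated protein, went from 95.4, 111, 137, 112 and 164 to 1401, 695, 592, 704 and 1168 (log2 2.82 ± 0.24, adjusted p = 1.36e-05), Emilin1 rose by 1.47, fibulin-2 (Fbln2) by 0.95 and fibrillin-1 (Fbn1) by 0.91. Efemp1, fibulin-3, fell from 246, 292, 238, 151 and 142 to 44.1, 69.3, 66.3, 46.9 and 55.9 (log2 -1.87 ± 0.22, adjusted p = 0.000188), so members of 1 fibulin group moved in opposite directions. Of 22 matricellular genes 10 rose and 0 fell (median 0.79). Postn, periostin of activated fibroblasts, went from 333, 691, 677, 465 and 367 to 9281, 4716, 5698, 3509 and 7365 (log2 3.57 ± 0.28, adjusted p = 7.15e-06), and Comp, thrombospondin-5, from 22.4, 35.2, 20.8, 29.8 and 40.2 to 643, 278, 295, 313 and 537 (log2 3.71 ± 0.27, adjusted p = 4.54e-06). Ctgf, a target of TGF-beta and of TEAD factors, held 1547, 6071, 1908, 5352 and 2802 in WT, a wide spread, and 11834, 10220.3, 6884, 10554 and 13692 in KO (log2 1.76 ± 0.36, adjusted p = 0.00526). Its relative Cyr61 was 3575 to 6788 in WT and 3623 to 5906 in KO (log2 0.12, adjusted p = 0.743).

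Of 20 ADAMTS and ADAMTS-like genes 5 rose and 1 fell: besides Adamts8 and Adamts20, both low in WT, the procollagen N-proteinase Adamts2 rose by 1.29, Adamtsl2 by 1.86 and Adamtsl5 by 1.03, and Adamts7 fell by 1.17 (adjusted p = 0.012). The call for Adamts7 was lost among the libraries without Xist, with the Xist class as a covariate and without KO 1 and KO 5 (highest adjusted p = 0.0732). Of 13 matrix metalloproteinases 4 rose and 2 fell; among the rises were Mmp2, which held 589, 834, 803, 902 and 586 in WT and 1844, 1481, 1597, 1551 and 1863 in KO (log2 1.18), its activator Mmp14 (1.17) and Mmp23 (1.87). The 2 falls became 0 without WT 1, WT 2, WT 4, KO 1 or KO 5 and 1 without WT 3, WT 5, KO 2, KO 3 or KO 4. Among 15 inhibitors, Timp1 rose from 30, 40.4, 19.9, 16.5 and 149.8 to 314, 138, 167, 89.6 and 273 (log2 2.27 ± 0.53, adjusted p = 0.0118) and the heart-enriched Timp4 fell from 1129, 564, 1125, 865 and 632 to 559, 188, 248, 234 and 378 (log2 -1.48 ± 0.29, adjusted p = 0.0048). WT 5, at 150, lay within the KO range of Timp1. Timp3 did not pass (-0.51, adjusted p = 0.199).

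Markers of cell types were read beside these matrix genes, and in RNA of whole tissue fewer cells of a type cannot be told apart from less RNA per cell. Markers of activated fibroblasts rose in 13 of 16 cases and fell in 1 (median 2.18); their summed level was 5477 to 8543 in WT and 13930 to 28760 in KO. Many of these markers are matrix genes already described. Meox1, a transcription factor of activated fibroblasts, is not: it went from 244, 209.5, 226, 148 and 285 to 1880.1, 1029, 990.1, 776 and 1704 (log2 2.46 ± 0.25, adjusted p = 5.68e-05). Acta2, smooth muscle actin and a marker of myofibroblasts, was the one that fell, from 4023, 5647, 2694, 3402 and 4000.5 to 1814, 1591, 1443, 2132 and 1175 (log2 -1.26 ± 0.20, adjusted p = 0.00127), without overlap. Markers of resting fibroblasts rose in 8 of 15 cases and fell in 1 (median 0.53), with summed levels of 36740 to 52420 and 46280 to 72110 that overlap; Pdgfra rose by 0.64 and Scara5 fell by 1.36. The 8 rises became 5 without WT 1, WT 2, WT 3, KO 1 or KO 5.

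Of 14 endothelial markers 0 rose and 3 fell, and all 14 had a negative sign as deposited (median -0.32); the capillary carbonic anhydrase Car4 fell from 458, 330, 349.6, 544 and 440.3 to 233, 137, 123, 134 and 170.3 (log2 -1.42 ± 0.19) and the water channel Aqp1 fell by 1.02. Pericyte and smooth muscle markers counted 2 up and 3 down of 14 (median -0.15). Cspg4 (up by 1.20) and Des rose, and Vtn, Abcc9 and Acta2 fell, the last of which is also on the list of activated fibroblasts. Macrophage markers counted 2 up and 0 down of 16 (median 0.34), and the rises became 1 without WT 1, WT 3, WT 4, KO 1 or KO 5 and 4 without KO 4. Among markers of Schwann cells and neurons 1 rose and 4 fell of 10 (median -0.69): Uchl1 rose from 109 to 430.1, while Gfra3, a receptor of the glial cell line-derived factor family, fell from 43.8, 35.3, 46.2, 53.4 and 40.2 to 7.93, 8.78, 14.4, 13.1 and 16.4 (log2 -1.80 ± 0.26) and myelin basic protein, Mbp, fell by 1.11. Ventricular cardiomyocyte markers counted 0 up and 3 down of 14 (Ckm, Tnni3 and Myh6; median -0.56), with a summed level of 1519000 to 1881000 in WT and 944600 to 1198000 in KO. What part these cell type shifts have in the changes of single genes was not tested.

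**Figure D2:**
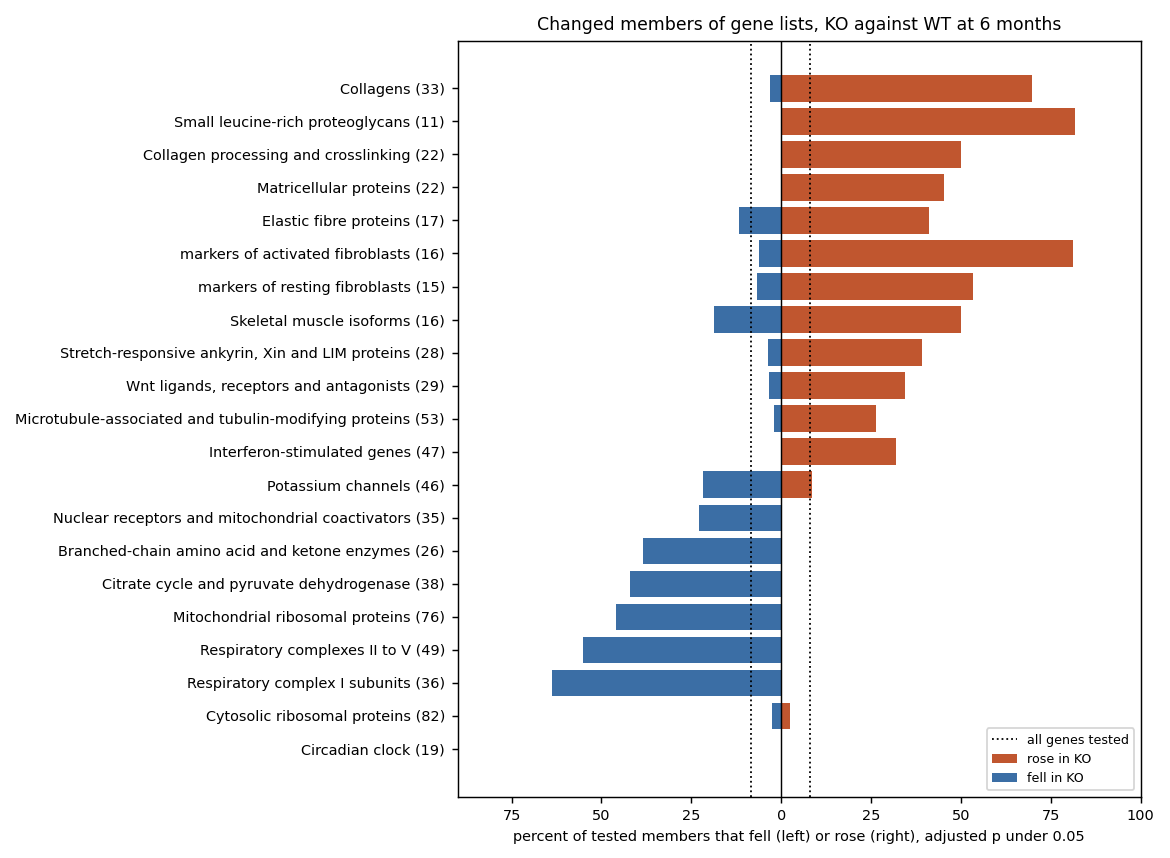
Percent of tested members that rose (right of 0) or fell (left of 0) in KO for 21 gene lists, with the number tested; dotted lines mark the shares over all genes, 8.09% up and 8.47% down. Collagens (23 of 33) extend to the right, and complex I subunits (23 of 36) to the left.

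Within the contractile apparatus, skeletal muscle isoforms moved in both directions with more rises than falls, while most cardiac sarcomere genes did not pass the test. Of 16 tested skeletal isoforms (33 are listed; the rest stayed under the level needed) 8 rose and 3 fell, with a median of 1.31. Mybpc2, myosin-binding protein C of fast muscle, went from 621, 649, 806, 641 and 409.7 to 3594, 3479.5, 3074, 4639 and 5124 (log2 2.68 ± 0.19, adjusted p = 3.47e-06). Myl1, an alkali light chain of fast muscle, went from 121, 92.2, 166, 109.8 and 169 to 2815, 1474, 776, 1392 and 1950.5 (log2 3.58 ± 0.29, adjusted p = 9.83e-06), and Casq1, the skeletal calsequestrin, from 150, 112, 251, 207 and 209 to 1357, 1582, 1526, 4472 and 2826 (log2 3.55 ± 0.32, adjusted p = 2.41e-05). KO 4 was the highest in Casq1 and KO 1 the highest in Myl1. The M-band protein Myom3 rose by 3.02, the Z-disc protein myotilin (Myot) by 1.80, Jsrp1 of the triad by 2.17 and slow troponin I, Tnni1, from 1.95, 0, 0.95, 1.03 and 3.1 to 19.3, 20.6, 14.5, 32 and 24.8 (log2 3.38). The skeletal calcium channel Cacna1s fell from 264, 212, 167, 225 and 239.7 to 60.4, 126, 147, 122 and 60.8 (log2 -1.18 ± 0.26, adjusted p = 0.00857). Myh1, Myh2 and Myh4, the fast myosins of adult skeletal fibres, stayed at 0 to 5.69 in all libraries. Besides Cacna1s, the troponin genes Tnni2 and Tnnt1 fell, the opposite direction to Tnni1. The 3 falls became 1 without WT 1, WT 4, KO 2, KO 4 or KO 5.

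Cardiac sarcomere genes counted 3 up and 4 down of 31 (median -0.24), and 2 down without WT 1 or KO 5. Tpm2, beta-tropomyosin, rose from 542, 399, 363, 463 and 631 to 1456, 731, 874, 898 and 1835 (log2 1.21 ± 0.25, adjusted p = 0.00562), and nebulin (Neb) rose by 1.33. Mylk4, a myosin light chain kinase of the heart, fell from 2169, 4449, 2431, 1699 and 2124 to 186, 979, 1112, 896 and 158 (log2 -2.30 ± 0.54, adjusted p = 0.0122); KO 1 and KO 5 lay at 186 and 158, under all other KO libraries. Cardiac actin Actc1 (-0.12), troponin T Tnnt2 (-0.61), alpha-tropomyosin Tpm1 (-0.62) and the ventricular light chain Myl2 (-0.53) did not pass (adjusted p = 0.799, 0.0559, 0.0676 and 0.199). Among 28 stretch-responsive ankyrin, Xin and LIM proteins 11 rose and 1 fell (median 0.24), and the fall became 0 without WT 1, WT 2, WT 3, WT 4, KO 1, KO 2, KO 4 or KO 5 and 2 without KO 3. Beyond those named, Fhl1, a LIM protein of the titin spring region, rose from 2091, 2316, 2218, 1829 and 1495 to 5107, 4275, 3937, 5157 and 6368 (log2 1.32 ± 0.16, adjusted p = 0.0002), Ankrd2 from near 0 (0 to 7.57) to 26.4 to 91 (log2 3.84), Rcan1, a target of calcineurin signalling, by 1.55 and filamin C (Flnc) by 0.76. Csrp3, the muscle LIM protein, did not pass (0.25, adjusted p = 0.418).

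The TEAD list holds the factors, their cofactors and Hippo kinases, and 5 of 24 rose with 0 falls (median 0.31). Amot, angiomotin, which binds the cofactor YAP, rose from 270.2, 335, 279, 151 and 86.7 to 541, 803, 638, 1123 and 801 (log2 1.91 ± 0.33, adjusted p = 0.00232), with the lowest WT values in WT 4 and WT 5. Tead1 itself was 1205 to 2876 in WT and 1619 to 3248 in KO (log2 0.28, adjusted p = 0.554), and Yap1 did not pass (0.31, adjusted p = 0.156). Levels of Tead1 thus overlapped between groups. Vgll2 did not overlap, but it was tested only because its KO libraries were high, so it cannot be set against Tead1. The count of 5 became 3 without WT 1, WT 3, WT 4 or KO 3 and 2 without KO 5.

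Natriuretic peptides, their receptors and processing genes counted 4 up and 1 down of 13. The rises were the peptide genes Nppa and Nppb, given above, with Npr3 and Prkg1, and the fall was Corin. The fall became 0 without WT 1, WT 2, WT 3, WT 4, KO 1, KO 2, KO 3 or KO 5. Npr3, the receptor that clears the peptides, went from 279, 246, 333, 141 and 191 to 1457, 1764, 1154, 2418 and 1774 (log2 2.86 ± 0.24, adjusted p = 1.18e-05), whereas the signalling receptor Npr1 did not pass (-0.42, adjusted p = 0.0863). Prkg1, the cGMP-dependent kinase downstream, rose by 1.23 (adjusted p = 0.00935). Of 14 renin-angiotensin and endothelin genes 2 rose and 0 fell: Edn3, endothelin-3, from 132, 73.2, 61.3, 39 and 28.9 to 404, 425, 321, 852 and 696 (log2 3.09 ± 0.38, adjusted p = 0.000218), and Ace, the angiotensin-converting enzyme, from 1029, 1110.1, 1206, 801 and 730.3 to 2485, 1604, 1917, 1967 and 2885 (log2 1.15 ± 0.18, adjusted p = 0.00129). KO 4 held the most Edn3 and KO 5 the most Ace.

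Secreted growth factors, their receptors and binding proteins moved in both directions. Of 17 insulin-like growth factor genes 3 rose and 1 fell (0 without WT 1, WT 3, WT 4, WT 5, KO 1, KO 4 or KO 5); the binding protein Igfbp5 went from 1170.2, 1492, 1256, 1109 and 879.8 to 3169, 3664, 3789, 4449 and 3389.9 (log2 1.65 ± 0.15, adjusted p = 2.09e-05), Igfbp7 rose by 1.18, and Igf1 did not pass (0.54, adjusted p = 0.0646). Of 29 Wnt ligands, receptors and antagonists 10 rose and 1 fell (median 0.27). The antagonist Frzb went from 84.8, 61.8, 78.3, 95.4 and 82.5 to 338, 214, 188, 218 and 289 (log2 1.60 ± 0.18, adjusted p = 0.000139) and Dkk3 from 12.7, 20, 32.1, 45.1 and 70.2 to 235, 149, 284, 155 and 197 (log2 2.66 ± 0.39, adjusted p = 0.000671), the ligand Wnt5b rose by 1.44 and the receptor Fzd1 by 0.94, and the antagonist Wif1 fell from 99.4, 113, 104, 52.3 and 81.4 to 26.5, 26.3, 62.5, 38.1 and 9.04 (log2 -1.63, adjusted p = 0.0179). In the epidermal growth factor family, Egf fell from 167, 272, 162, 83 and 147 to 21.3, 30.2, 47.1, 21.8 and 10.7 (log2 -2.67 ± 0.37, adjusted p = 0.00053) and Hbegf, another ligand of its receptor, rose from 415, 784, 342, 326 and 316 to 1228, 919, 776, 1079.5 and 1222 (log2 1.33 ± 0.24, adjusted p = 0.00261). Fgf23, a hormone made chiefly in bone, was 1.95, 1.9, 0, 5.13 and 3.09 in WT and 23, 11.7, 29.8, 32.7 and 36.1 in KO (log2 3.15), and the intracellular Fgf13, which binds sodium channels, fell by 1.01. Vegfb fell from 4059 to 2364 (log2 -0.77, adjusted p = 0.000715). In the interleukin-6 family the receptor Lifr fell by 0.91 (adjusted p = 0.000256).

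Genes of mitochondrial energy supply fell in all of the larger lists, with 0 rises among respiratory chain and mitochondrial ribosome genes. Of 36 subunits of complex I 23 fell (median -0.72), of 49 subunits of complexes II to V 27 (median -0.66) and of 76 mitochondrial ribosomal proteins 35 (median -0.46). Ndufab1, the acyl carrier subunit of complex I, went from 4796, 4074, 4315, 4739 and 4372 to 2613, 2892, 2783, 2515 and 2426 (log2 -0.75 ± 0.10, adjusted p = 0.000446), and Ndufv1, which binds NADH, fell by 0.84. In complex III the Rieske protein Uqcrfs1 went from 12998, 10770, 11404, 12617 and 13770.5 to 6611, 7402, 7270.5, 6269.7 and 5404 (log2 -0.90 ± 0.13, adjusted p = 0.000669) and Cyc1 and Uqcrc1 had log2 changes of -0.81 and -0.94. Among genes listed as mitochondrial ribosomal by their symbol alone, Mrps36 went from 1579, 1251, 1407, 1633 and 1911 to 817, 745, 722, 856 and 749 (log2 -0.99 ± 0.12, adjusted p = 0.000247), and Mrpl28 and Mrpl42 had log2 changes of -0.89 and -0.67. None of the 8 genes named here overlapped between the groups. Respiratory genes encoded in mitochondrial DNA are not among the genes listed.

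Several measures moved with these lists. By exon length, 30 of the 36 complex I genes, 39 of the 49 genes of complexes II to V and 50 of the 76 mitochondrial ribosomal genes were among the 2537 shortest of the 12685 tested genes with a length. These 2537 genes (up to 1893 exon bases) counted 131 up and 412 down, against 274 up and 125 down among the 2537 longest. With each library centred within 20 bins of exon length, an alternative chosen after the data were seen, the falls were 25 in complex I, 30 in complexes II to V and 28 in the mitochondrial ribosome, with medians of -0.51, -0.46 and -0.33. Scaling to equal totals left 16, 18 and 18 falls. Among the 8 libraries without Xist 12, 19 and 22 fell. The mitochondrial ribosome count was 20 without WT 1 or KO 5, and complex I counts ran from 18 to 31 over the libraries left out singly. The part of exon length and of the totals in these falls was not tested beyond those fits.

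**Figure D3:**
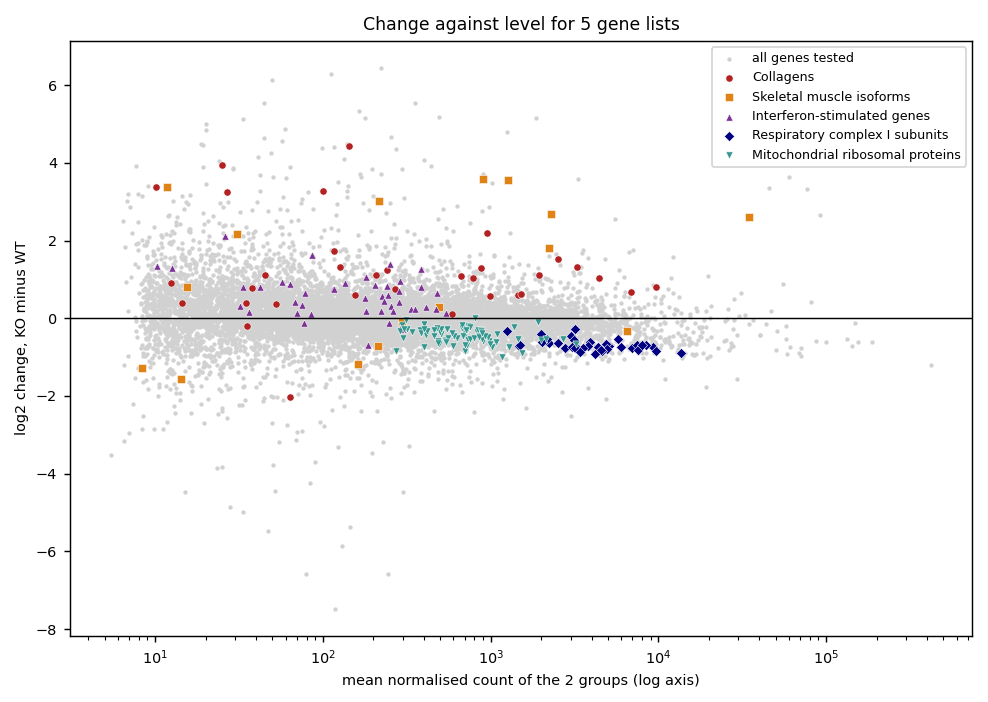
Log2 change in KO of each tested gene (grey) against its mean level, on a log axis, with members of 5 lists coloured. Collagens and skeletal muscle isoforms spread upwards to changes over 3, while respiratory and mitochondrial ribosomal genes lie mostly below 0.

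Enzymes that feed the respiratory chain fell as well. Of 38 genes of the citrate cycle and pyruvate dehydrogenase 16 fell and 0 rose (median -0.64), of 26 genes of branched-chain amino acids and ketones 10 fell and 0 rose (median -0.60), of 45 genes of fatty acid uptake and storage 13 fell and 1 rose (median -0.36) and of 20 genes of the creatine and adenylate shuttles 9 fell and 0 rose (median -0.44). Mpc2, a subunit of the carrier that brings pyruvate into mitochondria, went from 5166, 3788, 4558, 4719.6 and 5372 to 2778, 2673, 2619.8, 2296 and 2155 (log2 -0.91 ± 0.13, adjusted p = 0.000518), and Suclg1 of succinyl-CoA ligase fell by 0.84. Bckdhb, a subunit of the branched-chain ketoacid dehydrogenase, went from 876, 768, 780.4, 866 and 866 to 356, 469, 463, 409 and 307 (log2 -1.07 ± 0.13, adjusted p = 0.000218), next to Bcat2 one step upstream. The fatty acid transporter Slc27a1 fell by 0.88 and the thioesterase Acot1 fell by 1.31, whereas the desaturase Scd1 rose by 0.75, and the abundant carriers Cd36 (-0.48) and Fabp3 (-0.15) did not pass (adjusted p = 0.182 and 0.63). Pdk4, the fasting-responsive kinase of pyruvate dehydrogenase, ranged from 2985 to 20117 within WT and did not pass (-0.15, adjusted p = 0.858). With equal totals the falls were 12, 9, 10 and 4 for the 4 lists. The single rise of the fatty acid list became 2 without WT 5.

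Among 35 nuclear receptors and mitochondrial coactivators 8 fell and 0 rose (median -0.27). Rxrg, retinoid X receptor gamma, went from 1241, 952, 836, 982 and 970.3 to 294, 596, 567, 487 and 292 (log2 -1.21 ± 0.21, adjusted p = 0.00247). Ppargc1a, the coactivator that drives mitochondrial genes, held 2064, 3772, 1291, 2155 and 2533 in WT and 1049, 1197, 1157, 1122 and 869 in KO (log2 -1.05 ± 0.23, adjusted p = 0.00765). Thrb, a thyroid hormone receptor, fell by 0.68. The call for Esrra (-0.39) was lost without any of WT 1, WT 3, WT 4, KO 1, KO 2, KO 3 or KO 5, and the list count became 5 without WT 1 or with equal totals. Cardiac transcription factors counted 2 up and 4 down of 33. Their rises became 0 without WT 1, WT 4, KO 4 or KO 5 and 1 without WT 2, WT 5, KO 1, KO 2 or KO 3, and their falls 2 without WT 1 or WT 4. Hopx, a homeodomain protein of the heart, fell from 4376, 3821, 3514, 4620 and 4274 to 776, 1762, 1997, 1132 and 508 (log2 -1.90 ± 0.31, adjusted p = 0.00153), lowest in KO 1 and KO 5, and Hand2 fell by 0.68, while Gata4 (0.02) and Nkx2-5 (-0.34) did not pass (adjusted p = 0.957 and 0.114). Another gene lies on the opposite strand of 27.2% of the exon length of Hopx.

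Among potassium channels falls were more frequent than rises. Of 46 potassium channel genes 4 rose and 10 fell (median -0.26), against 8.09% up and 8.47% down over all genes tested. The rises lie near the background share. Kcnip2, the subunit that carries the transient outward current to the membrane with the Kv4 channels, went from 4149, 3175, 3111, 2621 and 3368 to 777, 1337, 1477, 1402 and 628 (log2 -1.61 ± 0.24, adjusted p = 0.000728). Kcnd2, one of those Kv4 channels, went from 429, 535, 499.6, 274 and 241 to 48.7, 189, 150, 173 and 23.8 (log2 -2.06 ± 0.52, adjusted p = 0.0174), and the background channel Kcnk3 fell by 0.76. In all 3 genes KO 1 and KO 5 were the lowest libraries. Kcnj14 held 1153, 1056, 977, 432 and 307 in WT and 141, 127, 111, 113 and 175 in KO (log2 -2.39), although 30.6% of its 51-base stretches occur in another transcript, and Kcnj3, part of the muscarinic potassium channel, fell by 1.52. Kcnj15 rose from 13.4 to 37.9 and the stretch-activated Kcnk2 by 1.15. The 4 rises became 2 without WT 1, WT 3, KO 3, KO 4 or KO 5. Gja1, connexin 43, lay at 1504 in KO 1 and 1454 in KO 5 but at 3895 to 5269 in the other KO libraries, within the WT range of 3876 to 6042, and did not pass (log2 -0.83, adjusted p = 0.119).

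Calcium channel subunits counted 4 up and 3 down of 28, and store and uptake genes 3 up and 3 down of 40. Over all genes tested 8.09% rose and 8.47% fell, and the counts of the store list lie near these shares. Of the channel subunits the rises became 2 without WT 1, and the falls 1 without WT 1, WT 2, WT 3, WT 4, WT 5, KO 2 or KO 5. The falls of the store list became 6 without WT 5. Ryr3, a calcium release channel of low level in the ventricle, went from 31.3, 32.2, 45.2, 8.2 and 13.4 to 459.6, 407, 247, 648 and 819 (log2 4.37 ± 0.44, adjusted p = 5.37e-05), while the cardiac channel Ryr2 did not pass (-0.46, adjusted p = 0.394). Cacna2d3, an auxiliary subunit, went from 4.88, 9.5, 5.66, 2.05 and 4.13 to 45.1, 21.4, 41.3, 89.3 and 50.1 (log2 2.99 ± 0.41, adjusted p = 0.000502), and the T-type channel Cacna1g rose by 0.78 (adjusted p = 0.0192, 0.0539 without WT 1). Hrc, a calcium-binding protein of the reticulum, fell from 23623, 21019, 19451, 20432 and 19021 to 9334, 12827, 12156, 13677 and 8049.9 (log2 -0.91 ± 0.17, adjusted p = 0.00315) and the counter-ion channel Tmem38a fell by 0.74. Atp2a2, the calcium pump of the reticulum, held 178000, 244656, 198886, 148154 and 94268 in WT and 44773, 145078, 142529, 169734 and 67142 in KO, so KO 1 and KO 5 lay below every WT library and the other KO libraries within their range (log2 -0.70, adjusted p = 0.275). Its inhibitor phospholamban (Pln) had a log2 change of -0.73 (adjusted p = 0.0574). In the receptor and cyclic nucleotide list 6 rose and 7 fell of 61 (4 fell without WT 1 or KO 5), to be read against the same shares. Gnao1, an inhibitory G protein subunit best known from neurons, went from 219, 223, 291, 229.8 and 162 to 1483, 1243, 1016, 2154 and 1873 (log2 2.76 ± 0.21, adjusted p = 5.97e-06), and Gnal, the olfactory stimulatory subunit, from 3.9, 5.7, 9.43, 13.3 and 6.2 to 85.9, 220.3, 102, 227 and 310.3 (log2 4.39 ± 0.39). The cyclase Adcy7 rose by 1.86 and the receptor kinase Grk5 by 1.19, the phosphodiesterase Pde1c fell by 1.35 and the catalytic kinase subunit Prkaca fell by 0.63, and the beta-1 receptor Adrb1 did not pass (-0.21, adjusted p = 0.671).

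Cytoskeletal genes rose more often than they fell. Of 53 microtubule-associated and tubulin-modifying genes 14 rose and 1 fell, of 46 kinesins and dyneins 8 rose and 2 fell, and of 17 intermediate filament and lamin genes 7 rose and 0 fell (median 0.46). Map1a went from 206, 203, 222, 143 and 139 to 416, 412, 417, 739 and 527 (log2 1.44 ± 0.20, adjusted p = 0.000473), Mapt, the tau protein, rose by 0.88, Clip1, which tracks growing microtubule ends, by 0.68, and the neuronal kinesin Kif1a by 2.22. Tubb3, a tubulin of neurons, rose from 12 to 64.8, and the alpha-tubulin Tuba4a fell from 11005 to 5954. Krt18, a keratin of simple epithelia, went from 11.7, 13.4, 3.78, 2.05 and 6.17 to 237, 82, 83.6, 63.3 and 131 (log2 3.90 ± 0.47, adjusted p = 0.000186), and synemin (Synm) rose by 0.86. Enah, an actin elongation factor of the Ena/VASP family, went from 2994, 3049.8, 2509, 1985 and 1890.5 to 7209.7, 6689, 5685, 6991 and 9265 (log2 1.54 ± 0.17, adjusted p = 0.000128). The microtubule count became 9 without WT 1, 8 without KO 5 and 6 without KO 1 and KO 5, and the kinesin count 3 without WT 1, 2 without WT 4 or KO 5 and 4 without KO 2 or KO 3. The falls became 2 without KO 4 in the microtubule list, and 0 without WT 1, WT 3, WT 4, KO 1, KO 2 or KO 5 and 1 without WT 2, KO 3 or KO 4 in the kinesin list.

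Adhesion genes are given as 4 lists. Of 24 desmosome and adherens junction genes 1 rose and 3 fell, of 21 integrins 3 rose and 0 fell, of 20 laminin and nidogen genes 2 rose and 2 fell, and of 21 sorbin partners 2 rose and 1, Sorbs2 itself, fell. Itga9 went from 1069, 1021, 946, 685 and 482 to 1700, 2155, 2035, 2487 and 2264 (log2 1.39 ± 0.21, adjusted p = 0.000821), highest in KO 4. Lamb3, a laminin chain of epithelial basement membranes, went from 203, 222, 181, 309.7 and 283 to 48.7, 89.7, 85.6, 52.3 and 50.9 (log2 -1.88 ± 0.22, adjusted p = 0.000167). The nectin Pvrl2 fell by 0.84 and cadherin-11 (Cdh11), known from fibroblasts, rose by 1.32. The integrin count was 6 without WT 2 and 1 without KO 5. The rises of the desmosome list became 2 without WT 2, those of the laminin list 1 without WT 1, WT 4, WT 5, KO 1, KO 3, KO 4 or KO 5, and those of the sorbin partners 0 without WT 4 or KO 5 and 1 without WT 1, WT 3 or KO 3.

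Stress and turnover genes gave isolated changes. Nmrk2, the muscle nicotinamide riboside kinase of NAD synthesis, went from 250.3, 133, 129, 142 and 81.4 to 1465, 839, 669.9, 793 and 1799.7 (log2 2.90 ± 0.32, adjusted p = 9.98e-05), in a list of 24 with 2 up (4 without KO 4) and 2 down; the mitochondrial deacylase Sirt3 fell by 0.73 and Nampt did not pass (-0.66, adjusted p = 0.0789). The mitochondrial stress response list counted 5 up and 5 down of 33: the folate enzyme Mthfd2 rose from 36.1 to 111 and the amino acid transporter Slc7a5 by 1.40, whereas Slc7a1 fell by 1.17 and Atf4 did not pass (-0.01, adjusted p = 0.982). Its 5 falls became 2 without WT 1, WT 3, WT 4, KO 3, KO 4 or KO 5 and 3 without KO 2. Nox4, an NADPH oxidase, went from 7.81, 13.3, 15.1, 19.5 and 17.6 to 165, 102, 65.4, 89.4 and 114 (log2 2.78 ± 0.29, adjusted p = 6.77e-05), while Sod2 of mitochondria fell by 0.78 and glutaredoxin (Glrx) fell by 1.12; the list counted 3 up and 9 down of 37. The atrophy ligases Fbxo32 (0.16) and Trim63 (-0.48) did not pass (adjusted p = 0.556 and 0.119), and Klhl41, a muscle Kelch protein, rose by 1.02. Of 47 proteasome genes 3 fell, with the activator subunit Psme1 from 1925 to 939. The 3 falls became 1 without WT 1, WT 4, KO 2 or KO 5. Of 82 cytosolic ribosomal proteins 2 rose (1 without WT 2, WT 3, WT 5, KO 1, KO 2, KO 3 or KO 5) and 2 fell, but their median differed between libraries, from 0.59 in WT 5, 0.50 in KO 1, 0.30 in WT 4 and 0.19 in KO 5 to -0.49 in KO 4. Star, which delivers cholesterol to mitochondria for steroid synthesis, went from 19.5, 9.5, 22.6, 28.7 and 60.9 to 1145, 977, 602, 599.9 and 1425 (log2 5.18 ± 0.40, adjusted p = 7.23e-06). Aldh1a2, which makes retinoic acid, rose by 1.49 (adjusted p = 0.00459).

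Interferon-stimulated genes rose in 15 of 47 cases and fell in 0 (median 0.53). Ifit3, which limits viral RNA translation, went from 124, 132, 156, 104 and 172 to 426, 411, 306, 257 and 412 (log2 1.39 ± 0.18, adjusted p = 0.000361), Ifit2 from 171, 261, 321, 179 and 212 to 471, 648, 491, 566 and 506 (log2 1.26 ± 0.18, adjusted p = 0.000549) and Ifit1 from 67.3, 95.1, 84.9, 86.2 and 135 to 256, 173, 161, 112 and 189 (log2 0.91 ± 0.23, adjusted p = 0.0177). WT 5, at 135, lay within the KO range of Ifit1, and its adjusted p was 0.0502 without WT 1. Zbp1, a sensor of nucleic acids, rose by 2.11, and Isg15 did not pass (0.65, adjusted p = 0.178). The list median of KO 4, at 0.04 above the WT mean, was the lowest of its group, with 0.59 to 0.88 in the others. The count became 9 without WT 1, 10 without KO 5 and 7 without KO 1 and KO 5. Ifit3 shares 50.8% of its 51-base stretches with Ifit3b.

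The interferon-stimulated response element, searched on both strands as GAAA, any 2 bases and GAAA, occurred in 2.57% of all promoters and in 17 of 42 promoters of this list (40.5%), which is background on the list and used no measured value. Among promoters of all genes that rose it occurred in 2.97%, and among those that fell in 1.8%. The last 160 bases before the start site of Ifit3 and the last 110 before that of Ifit1 show a pair each (capitals, here as TTTC, 2 bases and TTTC, the complement). Start sites were chosen by the most matches here too.
Ifit3: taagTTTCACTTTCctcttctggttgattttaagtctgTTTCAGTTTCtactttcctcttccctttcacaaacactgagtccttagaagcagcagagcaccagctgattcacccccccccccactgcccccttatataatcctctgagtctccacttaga
Ifit1: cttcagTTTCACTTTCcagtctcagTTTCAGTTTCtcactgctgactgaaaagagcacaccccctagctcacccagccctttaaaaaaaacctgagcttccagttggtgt
They lie at chr19:34583369-34583528, plus strand (Ifit3) and chr19:34640779-34640888, plus strand (Ifit1), with elements that begin at -156 and -122 and at -104 and -85. The 250 bases before Ifit2 hold no match, which says only that these letters are absent from that window.

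Class II antigen presentation fell in the same hearts. Of 20 antigen presentation genes 4 fell and 0 rose, and all 4 belong to class II. H2-Ab1 went from 622, 642, 436, 637 and 427 to 272, 185, 303, 103 and 229.5 (log2 -1.40 ± 0.26, adjusted p = 0.00345), and the invariant chain Cd74 from 1809, 1779, 1321, 1824 and 1194 to 748, 559, 886, 261 and 743 (log2 -1.40 ± 0.29, adjusted p = 0.00554). H2-Eb1 and H2-Aa had log2 changes of -1.48 and -1.44. KO 4 was the lowest library in each of the 4, and none overlapped between groups. Of 16 macrophage markers 0 fell. Chemokines and receptors counted 6 up and 2 down of 32: Cxcr6 rose from 1.95, 0.95, 2.83, 4.11 and 3.09 to 49.4, 42.9, 26, 27.2 and 42.7 (log2 3.46 ± 0.36), the scavenging receptor Ackr4 by 1.93, and the eosinophil attractant Ccl11 fell from 96.1, 269, 103, 49.4 and 29.8 to 4.37, 6.84, 18.2, 21.8 and 15.6 (log2 -2.75, adjusted p = 0.00564). The 6 rises became 3 without KO 2 or KO 5. Complement genes counted 7 up and 3 down of 29, with the lectin pathway protease Masp1 up from 118 to 416. The 3 falls became 0 without WT 1, WT 2, WT 5, KO 1 or KO 5 and 1 without WT 3, WT 4, KO 2 or KO 3.

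Cell cycle genes counted 11 up and 2 down of 48 (median 0.54). The replication helicase subunit Mcm6 went from 74.1, 72.3, 115, 88.2 and 94.9 to 217, 232, 308, 181 and 179 (log2 1.31 ± 0.18, adjusted p = 0.000549), and Mki67, a marker of dividing cells, from 73.2, 142, 168, 45.1 and 178 to 242, 377, 642, 223 and 309 (log2 1.62 ± 0.39, adjusted p = 0.0137), highest in KO 3. The inhibitor Cdkn1c fell from 449, 307, 432, 534 and 477 to 291, 148, 129, 135 and 158 (log2 -1.40, adjusted p = 0.00121) and the licensing inhibitor Gmnn fell by 1.20. The 11 rises became 6 without WT 1, KO 2, KO 3 or KO 5 and 7 without WT 4. Of 25 immediate early genes 1 rose and 7 fell (median -0.57; 4 fell without KO 3). The single rise became 0 without WT 1, WT 3, WT 5, KO 1, KO 2, KO 4 or KO 5. Arc went from 1229.7, 1946, 1317, 1507 and 617 to 160, 182, 138, 496 and 332 (log2 -2.42 ± 0.37, adjusted p = 0.000916), and Nr4a1 fell by 0.79 (adjusted p = 0.016). Of 19 circadian clock genes 0 passed the limma test in either direction. Among 22 long non-coding RNAs, Mhrt, which overlaps Myh7 on the other strand over 39.9% of its exons, went from 747, 418, 423, 623 and 1344 to 390, 211, 269.6, 206 and 195 (log2 -1.39, adjusted p = 0.00823), and Malat1 did not pass (-0.14, adjusted p = 0.848).

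The KO libraries were not alike. KO 1 and KO 5, the libraries with more residual Sorbs2, were the highest pair of the KO group in 385 of the 1066 genes that rose (36.1%) and the lowest pair in 454 of the 1116 that fell (40.7%), compared with 28.3% and 29% over all genes tested. List medians show where they stood apart. For the citrate cycle list the values were -1.09 and -1.003 in KO 1 and KO 5 but -0.42 to -0.25 in KO 2 to KO 4 (WT 5 lay at -0.46), and for branched-chain amino acid and ketone enzymes -0.92 and -1.06 against -0.42 to -0.31. Complex I genes were the reverse for KO 1, at -0.34 against -0.89 to -0.74 in the others. Collagens were 1.08 and 1.19 in KO 1 and KO 5 and 0.79 to 0.96 in the others. Without these libraries 1519 genes changed, 657 up and 862 down. The part of residual Sorbs2 in this order was not tested.

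**Figure D4:**
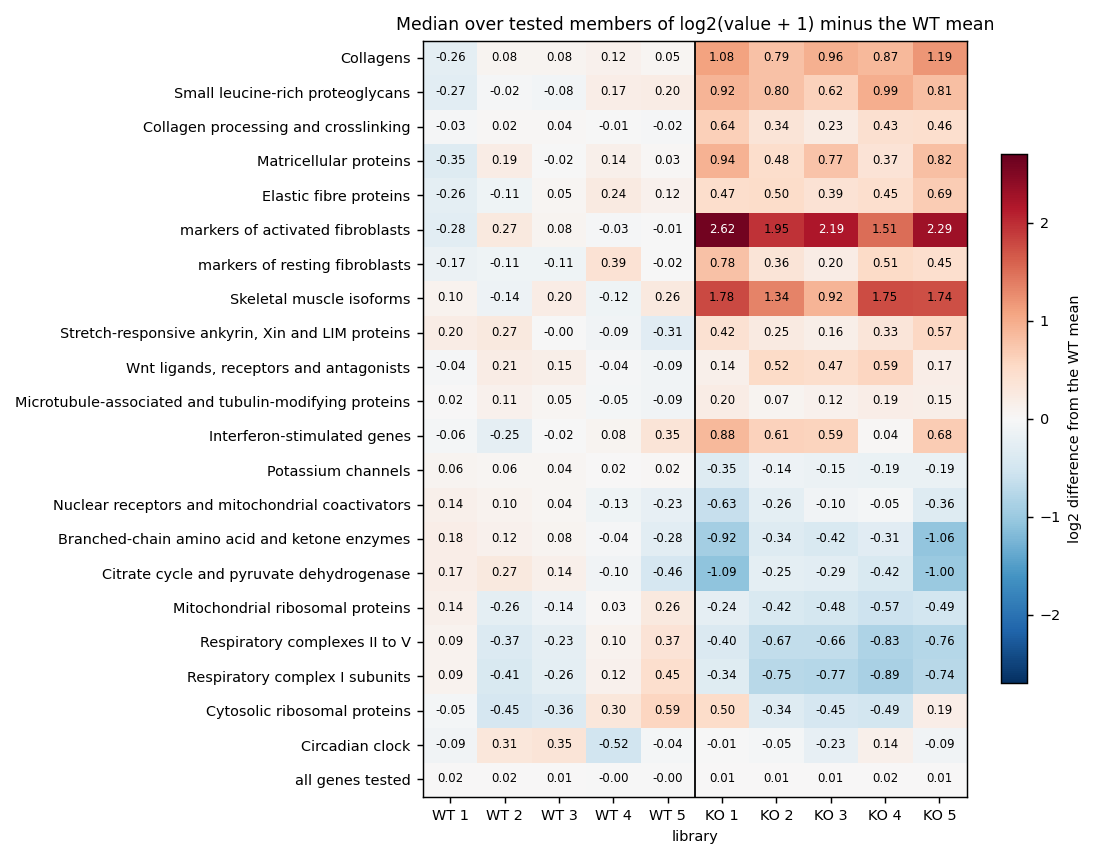
Median log2 difference from the WT mean over the tested members of each list (rows), in each library (columns, WT 1 to 5 and KO 1 to 5); red is higher and blue is lower. KO columns are red in the matrix lists and blue in the energy lists, and cytosolic ribosomal proteins are high in WT 4, WT 5, KO 1 and KO 5.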

How the data were processed

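RNA of the ventricle was sequenced from 5 WT and 5 KO hearts at 6 months, with a stranded mRNA kit and paired ends per the labels' protocols. The deposited values are normalised counts, a signal that is not whole. The series text names DESeq2 for the counts, but the steps that gave the deposited values are not described. The genome was mm10 per the submitters' processing notes. Which aligner and counter were used, or whether counting used strand, is not given in the sources used here. Below 8 steps of the smallest value 90.64% to 94.98% of values per library were whole multiples within 0.1 step, but at 100 to 200 steps 11.85% to 49.72%, so reads could not be recovered, a count model was not run and the depth behind each value is unknown.

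Genes with a value of at least 10 in at least 4 of the 10 libraries were tested with limma 3.58.1 (R 4.3.3, mean-variance trend) on log2(value + 1), with Benjamini-Hochberg adjustment over all of them and a threshold of 0.05. A fold change on this scale understates the change of low genes. A gene could also pass the filter through 1 group alone. Among the genes named, Vgll2, Syndig1, Tnni1, Fgf23, Cxcr6, Cacna2d3 and Ankrd2 passed through KO, and Gdpd3 and Ptprn2 through WT. Col8a2 likewise passed the filter only with KO 1 and KO 5 included. Genes like these were tested only because they were high in that group, and those on gene lists enter the list counts. Sorbs2 and library totals were also compared with exact two-sided permutation tests (scipy 1.17.1). Genes named are Sorbs2, Sorbs3, the 12 rises and 12 falls of smallest p with a mean of at least 100 and no overlap, the 10 rises and 10 falls with the largest difference of means, and members of gene lists: those of smallest p or highest mean, and members that did not pass. Some genes that fit these rules are not reported here. Positions are those of GENCODE M21 and promoters those of RefSeq GRCm38.p6. The members, lists and tests were chosen with earlier results of these data known. The fit was checked on simulated data. There were 23 alternatives (pseudocount, filter, scaling, variance model, replicate block, Xist, libraries left out), of which the centring by exon length was chosen after seeing the data. Libraries of other ages or treatments were not analysed here.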

Additional observations from a re-analysis of the deposited data

Results flagged for a closer look

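In 18 of 500 gene and group pairs 1 library stood apart from the other 4 of its group, where chance alone flags about 1 in 20. A library lay below its group for Aldh1a2 at 83.9 in KO 4 against 146 to 175, Cd36 at 15671 in WT 5 against 24944 to 28312 and Col12a1 at 2.07 in WT 5 against 12.7 to 23.7. Low single values were also seen for Dio2 at 18.9 in WT 3 against 24.7 to 26.6, Fstl1 at 1038 in WT 1 against 1444 to 1642 and Kcnj15 at 26 in KO 4 against 38.1 to 44.4. Lower than the other 4 were Mmp14 at 297 in KO 4 against 435 to 494, Pdk4 at 6729 in KO 4 against 9037 to 9613 and Prkaca at 3050.5 in WT 5 against 3505 to 3602. A library lay below its group for Vcan at 149 in WT 1 against 233 to 252 and Yap1 at 972 in WT 5 against 1282 to 1378. A library lay above its group for Ackr4 at 314 in KO 1 against 136 to 172, Cdkn1c at 291 in KO 1 against 129 to 158 and Esrra at 2155 in WT 1 against 1730.2 to 1814. High single values were also seen for Gapdh at 50880.4 in KO 1 against 45553 to 46713, Neb at 400.4 in KO 4 against 185 to 212 and Slc7a5 at 242 in KO 5 against 174 to 188. Higher than the other 4 were Tnni3 at 59649 in KO 1 against 41339 to 44984.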

How the results depend on the processing

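Of the 220 genes named above that passed the test, 197 kept the direction and the call in every alternative that tested them (21 to 23 of 23), 23 lost the call in at least 1 and 0 changed direction. Of the named genes that did not pass, 11 passed in at least 1 alternative, among them Tnnt2 in 7, Pln in 6 and Tpm1 in 4. The calls of Atp5a1, Gapdh, Esrra, Ltbp1, Col6a6 and Ifit1 were lost in alternatives other than the single libraries given above as well. Beyond the calls given above as lost, that of Cox4i1 was lost among the libraries without Xist, that of Flnc there and with the Xist class as a covariate, those of Lpl and Tnni3 in both and with no filter, and that of Des without Xist libraries and with no filter. The covariate also ended the calls of Mki67, Neb and Nr4a1, leaving out KO 1 and KO 5 those of Gdf6, Kcnk2, Thrb and Timp1, the lack of a filter that of Slc25a4, and the block and the lack of a filter that of Atp5b. Leaving out single libraries gave 1450 (without KO 5) to 2187 changed genes, 709 to 1082 up and 741 to 1105 down. Without KO 1 and KO 5 together 657 genes rose. Scaling to equal totals gave 1734 up and 656 down (72.55% up, compared with 48.85% as deposited). The cause of these shifts was not tested. Other settings gave 1850 (mean of at least 50) to 2311 (length bins centred) changed genes. The depth behind each value is unknown, so no counting error could be given.

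With the replicate number as a block 2008 genes changed. In the block the exact permutation test allows no p below 0.0625 with 5 pairs, so Sorbs2 (log2 -2.52) and the library totals (-1343040 counts) each gave p = 0.0625. Whether the numbers pair the libraries is unknown, because the labels name no litter or preparation day. The correlation of deviations between libraries of the same number was -0.03, 0.23, 0.21, -0.18 and 0.21. No WT library correlated best with the KO library of its own number, which cannot settle whether they share a litter or day.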
